A study of Mus musculus with 9 samples.

Results

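The immune and blood cell miRNAs were 9 mature miRNAs chosen by name for their enrichment in myeloid, lymphoid or red cells, out of 1966 mature miRNAs counted in mouse quadriceps. They were mmu-miR-223-3p, mmu-miR-223-5p, mmu-miR-142a-5p, mmu-miR-142a-3p, mmu-miR-150-5p, mmu-miR-155-5p, mmu-miR-146a-5p, mmu-miR-146b-5p and mmu-miR-451a. Of these, 8 had reads, as did 909 of all listed miRNAs, and mmu-miR-142a-3p stood at 0 in all 9 libraries. The question was whether the members moved together, as they would if the amount of blood and immune cells in the muscle changed, or moved apart.

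Small RNA libraries were made from total RNA of the quadriceps muscle of mice aged 90 days by the labels (the study's text states the age in weeks instead). WT mice (n = 3) were C57BL/6J with intact Mbnl1 and Mbnl2. Mbnl1KO mice (n = 3) were C57BL/6J, homozygous for a deletion of Mbnl1 exon 3 (Mbnl1 {delta}E3/{delta}E3), with intact Mbnl2. Mbnl2KO mice (n = 3) were of the B6.C-Tg(CMV-cre)1Cgn/J line with intact Mbnl1, and the labels give their Mbnl2 alleles as {delta}E2/{delta}E2 in replicate 1, {delta}E2/{delta}E3 in replicate 2 and {delta}E2/{delta}E4 in replicate 3, whereas the study's text names only the first of these. The Cre of that line is driven by a CMV promoter that is active in most tissues, so deletion of Mbnl2 was not restricted to muscle, and strain as labelled and Mbnl2 genotype cannot be told apart. The study's text calls the WT mice littermates without saying of which knockout line. MBNL proteins bind RNA and control alternative splicing, and the study describes overt myotonia and muscle dystrophy in Mbnl1KO mice.

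Mature miRNAs guide Argonaute proteins to messenger RNAs, mainly through the seed, the stretch of bases near the 5′ end that pairs with the target. Muscle tissue contains resident macrophages, some lymphocytes and the blood left in its vessels, and miRNAs made mostly in those cells appear at low levels beside the abundant miRNAs of the fibres. miR-223 is made in neutrophils and other myeloid cells, miR-142 in nearly all blood lineages, miR-150 in mature lymphocytes and miR-451a in red cells and their precursors, whereas miR-155 and the miR-146 pair are induced by inflammatory signalling and are also made outside the blood lineages.

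The mature sequences below, from RefSeq (GRCm38.p6), show which members could be counted apart. They run 5′ to 3′ with the seed, bases 2 to 8, in capitals, and 8 of the 9 members were matched.
mmu-miR-223-3p: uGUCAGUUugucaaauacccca
mmu-miR-223-5p: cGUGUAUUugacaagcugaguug
mmu-miR-142a-5p: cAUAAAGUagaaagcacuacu
mmu-miR-142a-3p: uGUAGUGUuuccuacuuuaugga
mmu-miR-155-5p: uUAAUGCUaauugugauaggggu
mmu-miR-146a-5p: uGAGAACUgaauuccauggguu
mmu-miR-146b-5p: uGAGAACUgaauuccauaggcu
mmu-miR-451a: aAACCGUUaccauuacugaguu
Among the matched members, miR-146a-5p and miR-146b-5p shared a seed, and no other matched member shared its seed with any other listed miRNA that had a sequence in the table used. The pair had 20 of 22 bases in common and differed by G18A and U21C, counted from the 5′ end of miR-146a-5p. A read ending before base 18 therefore cannot be assigned to either of them, and how such reads were counted is not given in the sources used here.

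The members came from separate loci except where they shared a hairpin. On GRCm38.p6, miR-223-5p lay at chrX:96242842-96242864 and miR-223-3p at chrX:96242884-96242905, both on the plus strand. The arms of miR-142a lay on the plus strand at chr11:87756867-87756887 (5p) and chr11:87756903-87756925 (3p). miR-451a lay at chr11:78073186-78073207 (plus strand), miR-146a-5p at chr11:43374435-43374456 (minus strand), miR-146b-5p at chr19:46342790-46342811 (plus strand) and miR-155-5p at chr16:84714143-84714165 (plus strand). In the GENCODE annotation of GRCm39, the hairpins Mir223, Mir142 and Mir155 lay in exons of the non-coding host genes Mir223hg, Mir142hg and Mir155hg. Mir150, Mir146 and Mir451a lay in exons of the lncRNAs Gm45552, Gm73818 and Gm57805, and Mir146b in an intron of the protein-coding gene Mfsd13a. The miR-144 hairpin lay in an exon of the same lncRNA as Mir451a.

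Mature miRNA counts hold no reading of Mbnl1 or Mbnl2, so the genotypes could not be checked in these files. The libraries held 4761271 to 6277018 counts, of which the fibre miRNA miR-1a-3p took 61.4% to 73.7%, and the 9 members together 0.0556% to 0.0831%. Levels below are normalised read counts after TMM scaling over all 9 libraries, with factors from 0.826 to 1.31. Under library totals alone the median log2 fold change of all miRNAs tested moved from -0.01 to 0.28 in Mbnl1KO against WT and from 0.07 to 0.35 in Mbnl1KO against Mbnl2KO, and the share of differentially expressed miRNAs that were higher in Mbnl1KO moved from 57.1% to 89.2% and from 56.6% to 94.6%. Of the miRNAs that define muscle fibres, miR-1a-3p, miR-133a-3p and miR-206-3p were abundant, miR-499-5p had 217 counts over the 9 libraries and miR-486a-5p stood at 0. The markers of brain and liver were near 0, with 5 counts of miR-124-3p over the 9 libraries and none of miR-9-5p or miR-122-5p. Nothing in the labels says that the libraries of a group came from separate mice, and if they did not, the p-values measure only the spread between these samples.

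Normalised counts summed over the members were 4064, 3816 and 4920.3 in WT, 3371, 3911 and 3239 in Mbnl1KO and 4040.3, 4213 and 3894 in Mbnl2KO. These sums overlapped between all 3 groups, and the members behind them went in different directions.

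**Figure D1:**
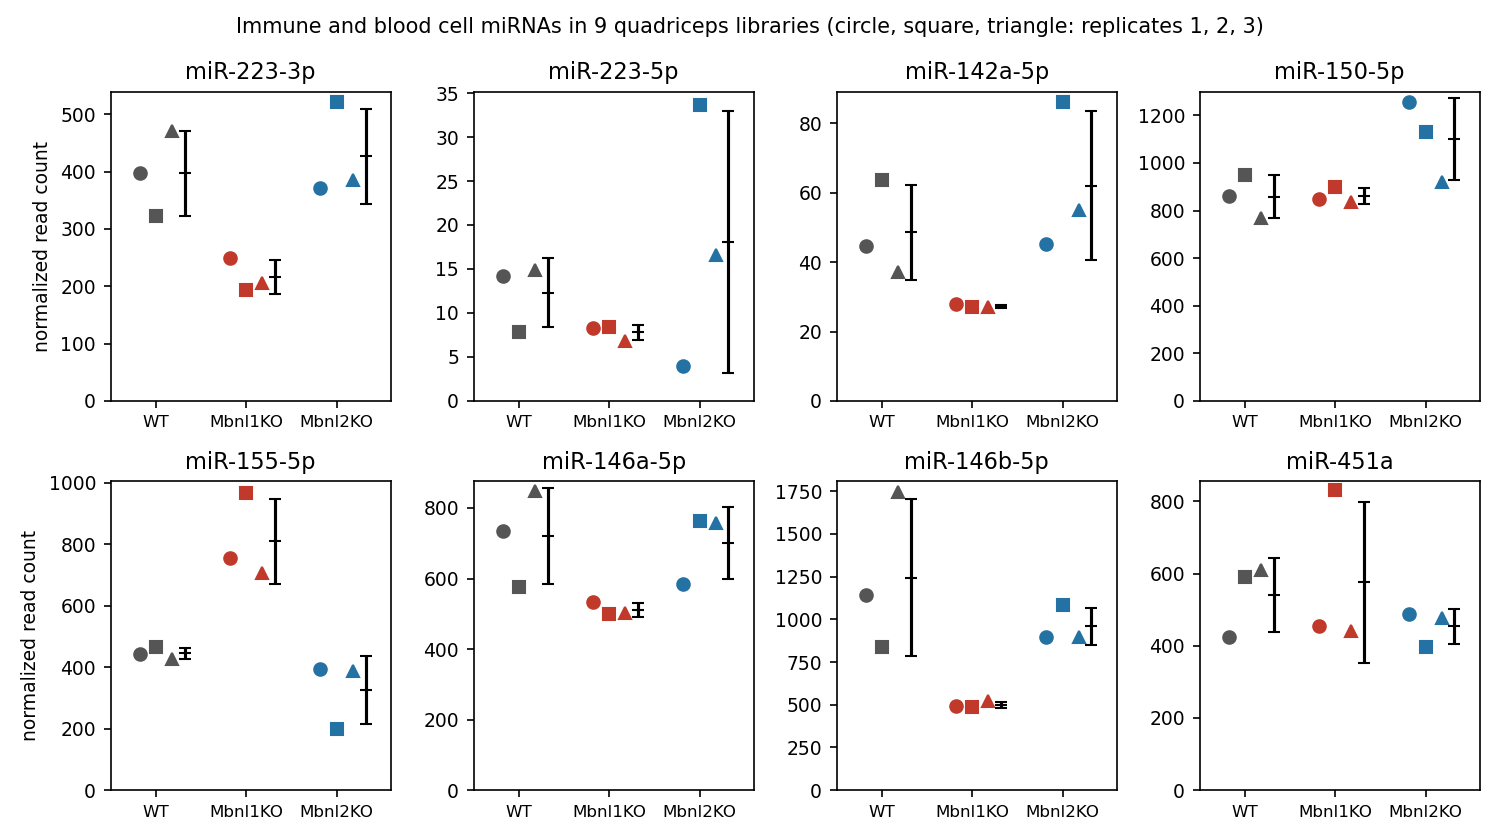
Normalised read counts of the 8 members with reads, 1 panel each, with a linear axis from 0; points are libraries (circle, square and triangle for replicates 1, 2 and 3) and the black bar is the mean with its SD (n = 3). The Mbnl1KO libraries lie below all others for miR-223-3p, miR-142a-5p, miR-146a-5p and miR-146b-5p and above all others for miR-155-5p.

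In Mbnl1KO against WT, 4 members were lower, namely miR-223-3p, miR-142a-5p, miR-146a-5p and miR-146b-5p, and 1 was higher, miR-155-5p, while miR-150-5p, miR-451a and miR-223-5p did not pass the test. The test was edgeR's quasi-likelihood F-test, adjusted by Benjamini-Hochberg over 317 miRNAs, of which 14.2% were called lower and 18.9% higher. The groups did not overlap for 5 of the 8 members tested, against 44.8% of all miRNAs tested. The members' median log2 fold change was -0.57, against -0.01 over all miRNAs tested, and -0.26 against 0.28 under library totals alone. Both medians of the members include miR-223-5p, which passed the filter at a mean of 10 through the WT libraries, so its lower value in Mbnl1KO is tied to the filter. In bulk muscle, fewer cells of a type and less of a miRNA per cell cannot be told apart.

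Among the myeloid miRNAs, miR-223-3p restrains the inflammatory activity of neutrophils. Its normalised counts were 397, 323 and 469.9 in WT, 249, 194 and 205 in Mbnl1KO and 371, 522 and 386 in Mbnl2KO. All Mbnl1KO libraries were below all others, and the WT and Mbnl2KO ranges overlapped. The level was 1.83-fold lower in Mbnl1KO than in WT (log2 fold change -0.87, SE 0.179, adjusted p = 3.74e-05), and it was called in all 6 fits that left out 1 library, at log2 fold changes from -1.01 to -0.74. Under library totals alone it was -0.56 (adjusted p = 0.0357 by edgeR), and the raw ranges overlapped, with 332 counts in Mbnl1KO replicate 1 and 329 in WT replicate 2.

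The other arm of this hairpin, miR-223-5p, was counted rarely. Raw counts were 13, 8 and 12 in WT, 11, 8 and 8 in Mbnl1KO and 4, 34 and 13 in Mbnl2KO. The normalised level was 12.3 ± 3.88 (SD, n = 3) in WT and 7.79 ± 0.891 in Mbnl1KO, with overlapping ranges, so that it passed the filter at a mean of 10 through the WT libraries. The log2 fold change in Mbnl1KO was -0.64 (SE 0.449, adjusted p = 0.27 by edgeR) and did not pass the test. The log2 ratio of the arms, 5p over 3p, was -4.93 ± 0.24 in WT, -4.62 ± 0.21 in Mbnl1KO and -4.86 ± 1.20 in Mbnl2KO, and the exact permutation test between groups did not reach the threshold (adjusted p = 0.879).

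Across blood lineages, miR-142 is a general marker of haematopoietic cells. Its 5p arm had raw counts of 41, 65 and 30 in WT, 37, 26 and 32 in Mbnl1KO and 45, 87 and 43 in Mbnl2KO. After scaling these became 44.7, 63.8 and 37.3 in WT, 27.8, 27.1 and 27.1 in Mbnl1KO and 45.2, 86.1 and 55.0 in Mbnl2KO. The 3 Mbnl1KO libraries were nearly equal and lay below all others only after scaling, since the raw ranges overlapped.

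The difference of miR-142a-5p between Mbnl1KO and WT (log2 fold change -0.84, SE 0.314, adjusted p = 0.0295 by edgeR) was close to the threshold. It was called in 2 of 6 fits that left out 1 library, with adjusted p from 0.016 without WT replicate 3 to 0.176 without WT replicate 2. Under library totals alone it was -0.53 with an adjusted p of 0.226 by edgeR, and with totals that left out miR-1a-3p it was -0.77 with an adjusted p of 0.053. The call was also lost in edgeR without a filter beyond 1 count (-0.84, adjusted p = 0.0658) and with a replicate block (-0.80, adjusted p = 0.0605). The ratio of miR-142a-5p to miR-223-3p was -3.02 ± 0.66 in WT, -2.93 ± 0.17 in Mbnl1KO and -2.80 ± 0.21 in Mbnl2KO on the log2 scale, and the difference between groups did not pass the exact permutation test (adjusted p = 0.879). Between replicates this ratio varied most in WT.

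The 3p arm, miR-142a-3p, had no read in any library, although the 5p arm of the same hairpin had reads in all of them. A count of 0 allows up to 3 counts per library. The annotation places Mir142b on the opposite strand, and the mature miR-142a-3p overlapped a mature miR-142b by 20 bases. Of 69 mature miRNAs that overlapped a mature miRNA on the other strand, 67 (97.1%) stood at 0 in every library and the highest reached 3 counts over the 9 libraries. Of 1606 without such an overlap, 824 (51.3%) stood at 0. Whether the counting left such miRNAs out was not tested, and the 0 of miR-142a-3p is not read here as absence from muscle. Of the marker miRNAs at 0, miR-126a-3p of endothelium and miR-9-5p of brain also overlapped a mature miRNA on the other strand, by 19 and 21 bases. The fibre miRNA miR-486a-5p, the endothelial miR-126a-5p and the liver miRNA miR-122-5p had no matched sequence, so their overlap could not be checked. The zeros of all these markers are not read as absence either.

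The lymphoid miRNA miR-150-5p targets the transcription factor Myb in lymphocytes. Its normalised counts were 859.6, 949 and 767 in WT, 850.0, 897 and 834 in Mbnl1KO and 1258, 1128 and 918 in Mbnl2KO. The Mbnl1KO values lay inside the WT range, with a log2 fold change of 0.00 (SE 0.156, adjusted p = 0.997 by edgeR) that ran from -0.08 to 0.07 when 1 library was left out. Under library totals alone it became 0.30 (adjusted p = 0.242 by edgeR). The ratio of miR-150-5p to miR-142a-5p was 4.14 ± 0.24 in WT, 4.93 ± 0.06 in Mbnl1KO and 4.17 ± 0.55 in Mbnl2KO on the log2 scale, with an adjusted p of 0.124 by the exact permutation test. The Mbnl1KO libraries, at 4.89 or more, lay above those of WT (3.87 to 4.33) and Mbnl2KO (3.70 to 4.77), and the adjusted p of the exact permutation test was 0.0214 without Mbnl2KO replicate 1 and 0.151 to 0.224 without any other library.

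The red cell miRNA miR-451a is matured by Argonaute cleavage without Dicer. Its normalised counts were 424, 591 and 609 in WT, 454, 832 and 441 in Mbnl1KO and 487, 398 and 478 in Mbnl2KO. All groups overlapped, and Mbnl1KO replicate 2 stood above every other library. The log2 fold change in Mbnl1KO against WT was 0.08 (SE 0.197, adjusted p = 0.786 by edgeR) and turned to -0.26 without Mbnl1KO replicate 2 and to -0.07 without WT replicate 1. In the same Mbnl1KO library, miR-144-5p, from the hairpin beside Mir451a, had a normalised count of 229, compared with 87.9 and 124 in the other two libraries of its group and 110.0 to 133 in WT. The next highest miR-144-5p value was 173 in Mbnl2KO replicate 3, where miR-451a, at 478, lay within the range of its group.

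Among the miRNAs induced by inflammatory signalling, miR-155-5p, which acts in activated macrophages and lymphocytes, was the member that rose. Its normalised counts were 442, 465 and 428 in WT, 756, 966 and 705 in Mbnl1KO and 393, 198 and 388 in Mbnl2KO. The 3 groups did not overlap each other, with Mbnl1KO highest and Mbnl2KO lowest. The level was 1.81-fold higher in Mbnl1KO than in WT (log2 fold change 0.86, SE 0.165, adjusted p = 1.02e-05 by edgeR) and was called in all 6 fits that left out 1 library. Relative to miR-142a-5p, its log2 ratio was 3.20 ± 0.33 in WT, 4.82 ± 0.24 in Mbnl1KO and 2.36 ± 1.02 in Mbnl2KO (exact permutation test over the 3 groups, adjusted p = 0.0286). With 1 library left out, the adjusted p of this exact permutation test ranged from 0.0214 to 0.0714 and was under 0.05 only without WT replicate 2 or without Mbnl2KO replicate 1. The ratios of miR-155-5p, miR-150-5p and miR-451a to miR-142a-5p were taken up after the data had been seen, because the planned denominator, miR-142a-3p, was at 0.

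miR-146a-5p and miR-146b-5p dampen Toll-like receptor and cytokine signalling and share a seed. Normalised counts of miR-146b-5p were 1145, 839.6 and 1745 in WT, 492, 486 and 519 in Mbnl1KO and 898, 1085 and 895 in Mbnl2KO. Those of miR-146a-5p were 736, 576 and 849 in WT, 534, 499.9 and 501 in Mbnl1KO and 584, 763 and 757 in Mbnl2KO. Both were lowest in the 3 Mbnl1KO libraries, with a narrow gap for miR-146a-5p and a wide one for miR-146b-5p. Raw counts of miR-146a-5p overlapped, with 711 in Mbnl1KO replicate 1 and 587 in WT replicate 2, whereas those of miR-146b-5p and miR-155-5p in Mbnl1KO did not overlap WT.

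miR-146b-5p was 2.49-fold lower in Mbnl1KO than in WT (log2 fold change -1.32, SE 0.186, adjusted p = 4.66e-07 by edgeR), and was called in all 6 fits that left out 1 library. miR-146a-5p was 1.41-fold lower (log2 fold change -0.49, SE 0.164, adjusted p = 0.0136 by edgeR). The call of miR-146a-5p was lost without WT replicate 1 (adjusted p = 0.0615) and without WT replicate 3 (adjusted p = 0.104), and under library totals alone, where the log2 fold change was -0.19 (adjusted p = 0.507). The pair did not fall by the same factor. The log2 ratio of miR-146b-5p to miR-146a-5p was 0.64, 0.54 and 1.04 in WT, -0.12, -0.04 and 0.05 in Mbnl1KO and 0.62, 0.51 and 0.24 in Mbnl2KO. Every Mbnl1KO library had a lower ratio than every other library, and the groups differed by the exact permutation test (adjusted p = 0.0286 over 8 ratios). With 1 library left out, the mean difference between Mbnl1KO and WT stayed between -0.87 and -0.62, and the adjusted p of the exact permutation test ranged from 0.0214 to 0.157, under 0.05 only without WT replicate 2 or Mbnl2KO replicate 1.

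**Figure D2:**
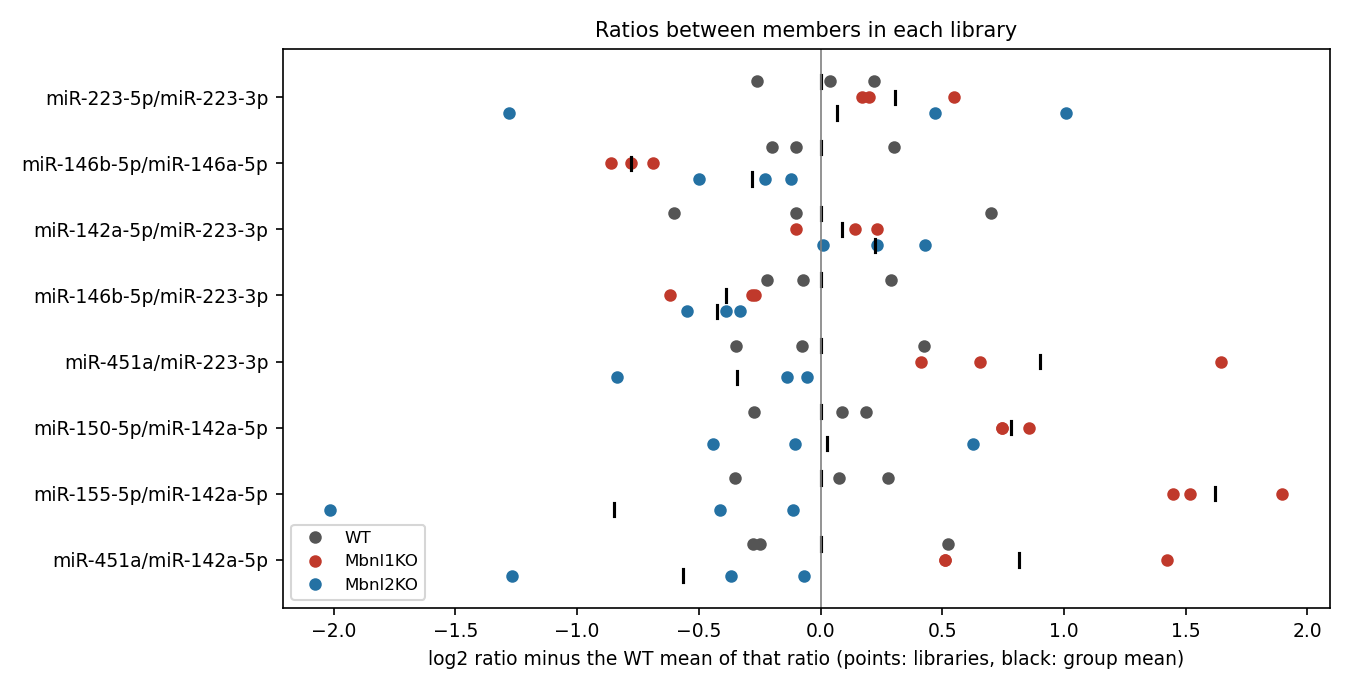
Log2 ratios between pairs of members in each library, shown as the difference from the WT mean of that ratio; points are libraries (n = 3 per group) and black ticks are group means. The Mbnl1KO libraries form a group of their own for miR-146b-5p over miR-146a-5p and, above all others, for miR-155-5p and miR-150-5p over miR-142a-5p (the last with an adjusted p of 0.124 by exact permutation), and the groups lie over each other for miR-142a-5p over miR-223-3p.

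Ratios within a library hardly depend on its scaling, so they compare members with each other directly. Of 8 ratios, 2 differed between the groups after adjustment, those of miR-146b-5p to miR-146a-5p and of miR-155-5p to miR-142a-5p, and 4 had an unadjusted p under 0.05 in the exact permutation test over all assignments of the 9 libraries to 3 groups, whose smallest possible p is 0.00357. The ratio of miR-451a to miR-223-3p was 0.45 ± 0.39 in WT, 1.35 ± 0.65 in Mbnl1KO and 0.10 ± 0.43 in Mbnl2KO (exact permutation, p = 0.0357, adjusted p = 0.08). That of miR-451a to miR-142a-5p was 3.47 ± 0.46, 4.28 ± 0.52 and 2.90 ± 0.63 in the same order (exact permutation, p = 0.0429, adjusted p = 0.08). Without Mbnl1KO replicate 2, the library with the high miR-451a count, the difference between Mbnl1KO and WT fell from 0.90 to 0.53 for the ratio to miR-223-3p and from 0.81 to 0.51 for that to miR-142a-5p (exact permutation, adjusted p = 0.224 for both). Over all fits that left out 1 library, the adjusted p of the exact permutation test ranged from 0.0857 to 0.224 for the ratio to miR-223-3p and from 0.0214, without Mbnl2KO replicate 1, to 0.224 for that to miR-142a-5p. The ratio of miR-146b-5p to miR-223-3p was 1.60 ± 0.27, 1.21 ± 0.20 and 1.18 ± 0.11 in the same order (exact permutation, p = 0.05, adjusted p = 0.08).

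In Mbnl2KO against WT, 0 of 8 members were differentially expressed by edgeR with Benjamini-Hochberg adjustment over 293 miRNAs, of which 3.41% were called higher and 2.39% lower. DESeq2 also called 0 members, and 2 of 8 had an unadjusted p under 0.05 in edgeR, against 18.1% of all miRNAs tested. The groups did not overlap for 1 member, miR-155-5p, against 23.2% of all miRNAs tested, and the members' median log2 fold change was 0.05. The members at an unadjusted p under 0.05 in edgeR were miR-150-5p (log2 fold change 0.38, SE 0.149, adjusted p = 0.142) and miR-155-5p (log2 fold change -0.42, SE 0.202, adjusted p = 0.274). The miR-155-5p value rested on Mbnl2KO replicate 2, without which the log2 fold change was -0.12. miR-142a-5p (0.36, adjusted p = 0.527), miR-223-3p (0.12, adjusted p = 0.738) and miR-146a-5p (-0.02, adjusted p = 0.96) had log2 fold changes on both sides of 0 in edgeR, and none passed the test. For miR-146b-5p the log2 fold change was -0.36 (adjusted p = 0.339 by edgeR) and became -0.02 without WT replicate 3. miR-223-5p changed sign, from 0.58 to -0.24, without Mbnl2KO replicate 2, and miR-451a was at -0.23 (adjusted p = 0.498 by edgeR).

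**Figure D3:**
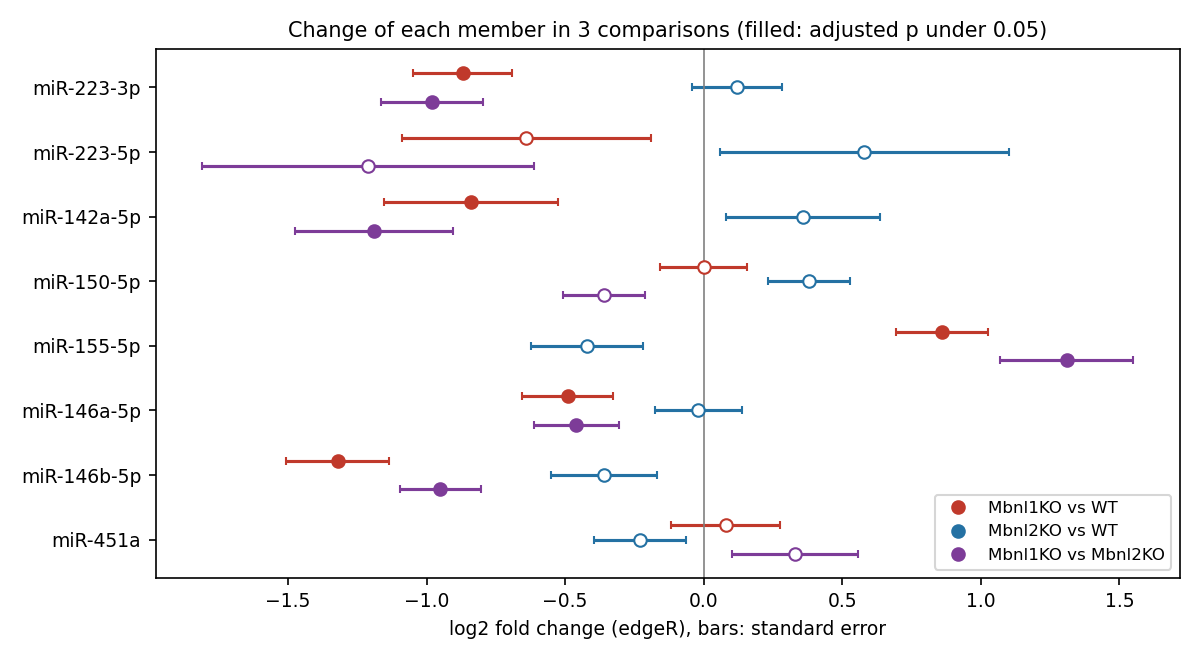
Log2 fold changes of the 8 members with reads in 3 comparisons by edgeR, with bars of 1 SE; filled points have an adjusted p under 0.05. Mbnl1KO differed in 5 members from WT and in 5 from Mbnl2KO, in both cases with miR-155-5p as the member that was higher, and no Mbnl2KO against WT point is filled. Of all miRNAs tested, 33.1% were called in Mbnl1KO against WT, 26.9% in Mbnl1KO against Mbnl2KO and 5.8% in Mbnl2KO against WT.

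The knockouts were then compared directly, which tests the difference between them with strain included in it. In Mbnl1KO against Mbnl2KO, 5 of 8 members were called by edgeR with Benjamini-Hochberg adjustment over 309 miRNAs, 4 of them lower and 1 higher, where 11.7% of all miRNAs tested were lower and 15.2% higher. The groups did not overlap for 6 members, against 47.9% of all miRNAs tested, and the members' median log2 fold change was -0.70, against 0.07 over all, and -0.41 against 0.35 under library totals alone. This comparison shares the Mbnl1KO libraries with the one above, so it is not a second experiment. miR-155-5p was 2.48-fold higher (log2 fold change 1.31, SE 0.24, adjusted p = 0.00178). The largest fall among those called was that of miR-142a-5p (log2 fold change -1.19, SE 0.285, adjusted p = 0.0058), followed by miR-223-3p (-0.98, SE 0.185, adjusted p = 0.000957) and miR-146b-5p (-0.95, SE 0.145, adjusted p = 0.000168). All 4 of these were called in each of 6 fits that left out 1 library. miR-146a-5p (-0.46, SE 0.153, adjusted p = 0.0345) kept its call in 2 of those 6 fits, and lost it in edgeR under library totals alone (-0.16, adjusted p = 0.691), with totals that left out miR-1a-3p (adjusted p = 0.0783) and without a filter beyond 1 count (adjusted p = 0.107). A replicate block in edgeR lost its call as well (-0.45, adjusted p = 0.0656). miR-223-5p (-1.21, SE 0.599, adjusted p = 0.148), miR-150-5p (-0.36, SE 0.148, adjusted p = 0.0822) and miR-451a (0.33, SE 0.227, adjusted p = 0.292) did not pass the test in edgeR. miR-150-5p did pass with DESeq2's size factors in edgeR (adjusted p = 0.0434) and without Mbnl2KO replicate 3 (adjusted p = 0.0279), and miR-223-5p without Mbnl2KO replicate 1 (adjusted p = 0.0164). miR-223-5p passed the filter in this comparison through the Mbnl2KO libraries (means of 8.12 and 18.9 in this fit), so its lower value in Mbnl1KO is tied to the filter. That value also enters the members' medians of -0.70 and, under library totals alone, -0.41.

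Libraries of the same group were used to ask whether members rose and fell together from library to library, although by the labels the 3 Mbnl2KO libraries carry different Mbnl2 allele pairs, so their spread may include the allele. In WT, replicate 3 was highest and replicate 2 lowest for miR-223-3p, miR-223-5p, miR-146a-5p and miR-146b-5p. The order was the opposite for miR-142a-5p, miR-150-5p and miR-155-5p, which were highest in replicate 2 and lowest in replicate 3. Mbnl2KO replicate 2 was highest of its group for miR-223-3p, miR-223-5p, miR-142a-5p, miR-146a-5p and miR-146b-5p, and lowest for miR-155-5p and miR-451a. In Mbnl1KO the miR-223 and miR-146 members did not share an order. Replicate 1 was highest for miR-223-3p and miR-146a-5p, replicate 2 for miR-223-5p and replicate 3 for miR-146b-5p.

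**Figure D4:**
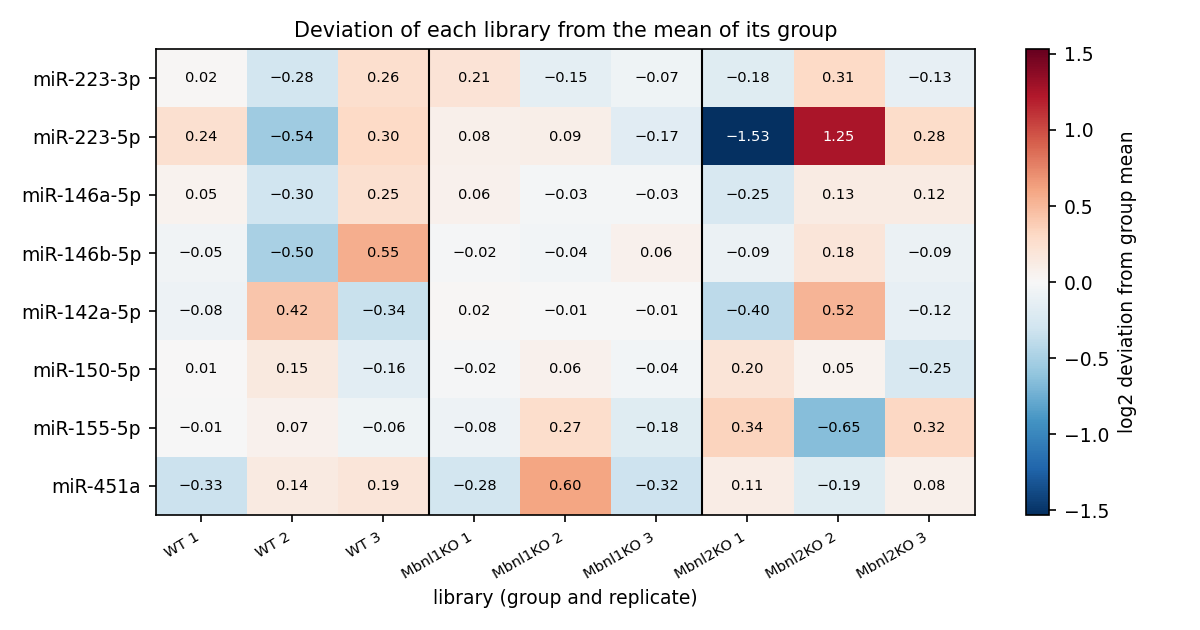
Log2 deviation of each library from the mean of its group, members in rows and libraries in columns, with the value in each cell. In WT the miR-223 and miR-146 rows are lowest in replicate 2 and highest in replicate 3, and the miR-142a-5p, miR-150-5p and miR-155-5p rows show the reverse order.

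Over 28 pairs of members, Pearson's r of these deviations across 9 libraries ranged from -0.80 to 0.81 with a median of -0.16, and 12 pairs were positive. By exact permutation within groups (all arrangements, smallest possible p 0.00463), 4 pairs had an unadjusted p under 0.05 and 0 after adjustment, with a smallest adjusted p of 0.227. miR-223-3p correlated with miR-146b-5p at r = 0.77 (Spearman's rho 0.83, exact permutation p = 0.0278 and 0.0417, adjusted 0.227 and 0.233), and at r = 0.60 without the 2 libraries farthest from the median. With miR-155-5p it correlated at r = -0.73 (rho -0.77, exact permutation p = 0.0324 and 0.0185, adjusted 0.227 for both), and at -0.54 without 2 libraries. The smallest p went with a weak r, that of miR-155-5p with miR-146b-5p (r = -0.38, rho -0.75, exact permutation p = 0.00926 and 0.0139, adjusted 0.227 for both). miR-223-5p correlated with miR-146a-5p at r = 0.78 (rho 0.88, exact permutation p = 0.0185 and 0.0324, adjusted 0.227 for both). The pan-haematopoietic miR-142a-5p and the myeloid miR-223-3p had an r of 0.09 (rho 0.17, exact permutation p = 0.815 and 0.713, adjusted 0.892 and 0.951), which became -0.16 without 2 libraries. With library totals alone the median r over the pairs was 0.11, so its sign depended on the scaling.

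A further list of 14 miRNAs of blood and immune cells had 3 members above the filter, and edgeR called 0 of them in each comparison, with 0 at an unadjusted p under 0.05 and 0 by DESeq2, where 33.1% (Mbnl1KO against WT), 5.8% (Mbnl2KO against WT) and 26.9% (Mbnl1KO against Mbnl2KO) of all miRNAs tested were called by edgeR. With 3 miRNAs, a count of 0 says little. In Mbnl1KO against WT the log2 fold changes were 0.20 for miR-342-3p, which is abundant in lymphocytes (adjusted p = 0.416), 0.23 for miR-144-5p of red cells (adjusted p = 0.522) and -0.06 for miR-511-5p of macrophages (adjusted p = 0.911). Of the 14, 4 stood at 0 in all libraries.

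Markers of other cells in muscle moved as follows. The summed level of the 3 fibroblast markers spanned 7279 to 8196 in the WT libraries, 6030.3 to 6994 in Mbnl1KO libraries and 6705 to 9262 in those of Mbnl2KO, in normalised counts, and 1 of 3 was called in Mbnl1KO against WT, miR-199a-3p (log2 fold change -0.43, adjusted p = 0.0139 by edgeR). That of the 2 vessel wall markers spanned 28512 to 32649 in the WT libraries, 26462 to 41930.3 in Mbnl1KO libraries and 36824 to 41763 in those of Mbnl2KO, with miR-143-3p called in Mbnl2KO against WT (log2 fold change 0.48, adjusted p = 0.0169 by edgeR). Both endothelial markers, miR-126a-3p and miR-126a-5p, were listed at 0 in every library. For the 5 fibre markers the summed level spanned 4577481 to 5221706 in the WT libraries, 3184667 to 4171290.1 in Mbnl1KO libraries and 4182899 to 5551532 in those of Mbnl2KO. That sum was nearly all miR-1a-3p, which did not pass the test in Mbnl1KO against WT (log2 fold change -0.40, adjusted p = 0.0502 by edgeR). miR-206-3p, a muscle miRNA raised during regeneration, went the other way and was called higher by edgeR in Mbnl1KO against WT (log2 fold change 1.93, adjusted p = 4.37e-21) and in Mbnl2KO against WT (0.89, adjusted p = 0.000757). miR-133a-3p stood at 0.03 in Mbnl1KO against WT (adjusted p = 0.887 by edgeR). In Mbnl1KO against Mbnl2KO, edgeR called miR-199a-3p lower (log2 fold change -0.45, adjusted p = 0.0274) and miR-206-3p higher (1.06, adjusted p = 2.87e-05). The part of these shifts in the changes of the members was not tested.

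As a description over 9 libraries, the miRNAs whose levels were most like each anchor member were taken from 302 miRNAs outside the set by Pearson's r, with the genotype differences left in. They were let-7e-5p (0.97), miR-3058-5p (0.93) and miR-378a-3p (0.92) for miR-223-3p, and miR-339-5p (0.95), miR-874-3p (0.94) and miR-125b-5p (0.93) for miR-142a-5p. For miR-150-5p they were miR-335-3p (0.90), miR-10a-5p (0.83) and miR-148a-5p (0.81). For miR-451a they were miR-29a-3p (0.84), miR-21a-5p (0.79) and miR-15a-5p (0.76).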

How the data were processed

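Per the labels, small RNA from mouse quadriceps was sequenced in 9 libraries (NEXTflex kit), and the authors deposited 1 table of raw counts per mature miRNA. The study's methods describe adapter clipping, collapsing of reads, Megablast alignment without mismatches to miRBase precursors and a window of 2 nt around each mature end; the settings behind the deposited count table itself are not given in the sources used here. No column was left unmapped.

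Comparisons used the 6 libraries concerned in edgeR 4.0.16 (R 4.3.3; quasi-likelihood, TMM, robust) on miRNAs with a mean count above 10 after DESeq2 (1.42.0) scaling, with Benjamini-Hochberg adjustment at 0.05. Printed levels are counts scaled by TMM over 9 libraries. Ratios used a pseudocount of 1 and an exact two-sided permutation test over the 3 groups. Alternatives were other scalings, DESeq2's test, filters, 1 fit of all libraries, a replicate block and leaving out each library. The edgeR and DESeq2 fits were checked on simulated counts with 4-fold changes, larger than those of the members, and a fixed dispersion. The permutation tests were checked on simulated normal values. The members and lists were chosen with earlier results of these data known. The named miRNAs are the 9 members, the listed markers and the 3 nearest miRNAs of 4 anchors.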

Additional observations from a re-analysis of the deposited data

Results flagged for a closer look

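The Mbnl1KO and Mbnl2KO libraries, which differ in strain as well as in genotype, differed in a direct test by edgeR with Benjamini-Hochberg adjustment, for 5 of 8 members tested, where 26.9% of all miRNAs tested were called. The log2 fold change of Mbnl1KO against Mbnl2KO was -0.98 for miR-223-3p, -1.19 for miR-142a-5p, -0.46 for miR-146a-5p, -0.95 for miR-146b-5p and 1.31 for miR-155-5p. The call of miR-146a-5p held in 2 of 6 fits that left out 1 library. Groups of 3 are too small for a test of single outlying values. Replicates were also compared by chi-square over the miRNAs that reached a minimum summed count in the pair of libraries. The value per degree of freedom was 38.8 to 59.5 in WT, 103 to 272 in Mbnl1KO (272 for replicates 1 and 2) and 53.9 to 209 in Mbnl2KO (209 for replicates 2 and 3).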

How the results depend on the processing

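Members called in Mbnl1KO against WT numbered 5, 3 under library totals alone, and 3 to 5 with 1 library left out (3 without WT replicate 1). Over all miRNAs the calls were 105 of 317, 102 under library totals and 75 to 115 with 1 library left out (75 without WT replicate 1). In Mbnl1KO against Mbnl2KO the members called numbered 5, and 4 to 6 over the alternatives. Over all miRNAs the calls in that comparison were 83 of 309, and 55 to 93 over the alternatives (55 without Mbnl1KO replicate 3). In Mbnl2KO against WT the 0 calls became 2 of 8 at an unadjusted p (18.1% of all miRNAs), a reading added after the data were seen. The sign of miR-150-5p in Mbnl1KO against WT was not stable: 0.30 under library totals, 0.07 without miR-1a-3p in the totals, 0.03 with the stricter filter, 0.00 with the replicate block, and -0.08 to 0.07 with 1 library left out. With 1 library left out, miR-451a ran from -0.26 to 0.24 against WT and from -0.06 to 0.50 against Mbnl2KO, and in Mbnl2KO against WT miR-223-3p ran from -0.01 to 0.27, miR-223-5p from -0.24 to 1.03 and miR-146a-5p from -0.16 to 0.12. The difference of Mbnl1KO from WT in the ratio of miR-146b-5p to miR-146a-5p ran from -0.87 to -0.62, and that of miR-142a-5p to miR-223-3p from -0.21 to 0.44 (negative without WT replicate 3). The median r was 0.11 under library totals and -0.05 without miR-1a-3p. Why these values moved was not tested.

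Same-numbered replicates correlated at -0.17 to 0.13, 1 of 9 pairs above 0.1, and differently numbered ones at -0.16 to 0.17. In 5 of 18 lookups a library matched best with its own number. The check gave no sign that the numbers pair the samples, but groups of 3 are too small for it to exclude a pairing. With a replicate block, all calls went from 105 to 92, 17 to 21 and 83 to 80, and the members called were 4, 0 and 4 in Mbnl1KO against WT, Mbnl2KO against WT and Mbnl1KO against Mbnl2KO. Raw counts of 4 to 87 for miR-223-5p and miR-142a-5p limit what can be said of either.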
